A study of Mus musculus with 128 samples.

Results

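Liver RNA of 20 mice that drank plain water was compared between 6 h and 3 h after food was returned, a step from 10 pm to 1 am. These 20 libraries, 10 at each time, were taken by their drink and time labels, which leaves 108 other libraries in the series. At each time they comprised 5 BALB/c and 5 C57BL6/J livers, all from wild-type males bought at 8 weeks of age. Training lasted 1 week, in which chow was offered between 7 pm and 10 pm and the mice fasted for the remaining 21 h. On the day of the experiment, after the same 21 h fast and with water withheld from 4 pm, they received chow and water at 7 pm. The chow supplied 10% of its calories as fat and 64.5% as carbohydrate. The labels name the time field a feed duration, and whether chow was taken away at 10 pm that day is not stated. Time of day and time since the start of the meal cannot be told apart, because every 6 h liver was taken at 1 am and every 3 h liver at 10 pm. The main other libraries used here are the 60 of mice that drank 20% glucose, sucrose or fructose at the same times, which show the same step with another drink. Libraries of fasted mice (0 h) and of 12 h entered only a model of the whole series and, on water, a check of each library's nearest time. That each library is a separate mouse is inferred from the protocol, so the p-values reflect the spread among libraries, which may be technical.

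A meal changes what the liver makes in an ordered way. Feeding signals first switch on glucose use, growth of the protein-making machinery and the regulator SREBP-1c. The regulator SREBP-2 sets the genes of cholesterol synthesis, and its activity follows the sterol content of the endoplasmic reticulum. In nocturnal animals these changes run over the daily cycle of the clock genes, whose phase in the liver follows the feeding time.

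The libraries held 21292100 to 29009404 counts at 6 h (median 25015859) and 20545291 to 31581673 at 3 h (median 24841179), and mitochondrial genes took 4.44% to 7.53% of them at 6 h and 3.55% to 7.17% at 3 h. The labelled tissue was checked with 11 hepatocyte markers, such as albumin and transthyretin, none of which was at 0. Their summed level was 74000 to 137000 CPM (counts scaled to the library's TMM-adjusted total) at 6 h, with a median of 98600, and 55300 to 120000 at 3 h, with the same median. The value of 55300 belonged to C57BL6/J 3 h replicate 4. That library correlated with neither 6 h (r = -0.01) nor its own time (r = -0.06) over strain-centred profiles of all genes, and BALB/c 3 h replicate 4 was nearer to 6 h (r = 0.29) than to 3 h (r = 0.22). The centring used the water libraries of all times. Among them a fasted library, C57BL6/J 0 h replicate 2, was itself nearest to 3 h (r = 0.53, against -0.37 with 0 h). Counts for a list are therefore also given without these 2 doubtful 3 h libraries where a count then moves by over 1.5 times. The 2 were picked by their expression in these same data. More calls without them are thus favoured by the choice and are no separate support for the step. Skeletal muscle markers summed to 2.37 to 426 CPM at 6 h (median 246) and 2.94 to 233 CPM at 3 h (median 70.4), with 1 of 13 markers, Tnnc2, at 0 in all libraries and 0 of 12 tested members called. Adrenal markers reached 687 CPM in C57BL6/J 6 h replicate 2 and kidney markers 997 CPM in BALB/c 6 h replicate 1, against medians of 3.58 and 0.198 CPM over the 6 h libraries, and the part of such tissue in the results was not tested. In whole liver, fewer cells of a type and less RNA per cell cannot be told apart. The names of 2 of 10 libraries at 6 h and 3 of 10 at 3 h end in an unexplained letter a, which was treated as a possible batch.

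Of 14764 genes tested, 1898 (12.9%) differed between 6 h and 3 h at an adjusted p under 0.05 in edgeR's quasi-likelihood test with strain as covariate. At 6 h, 764 (5.17%) were higher and 1134 (7.68%) lower, and 168 changed at least 2-fold, of which 97 were higher and 71 lower. The median log2 fold change of all genes tested was -0.01. The 10 values at 6 h and the 10 at 3 h did not overlap for 100 genes (0.677%), 36 of them (0.244%) higher and 64 (0.433%) lower at 6 h. The 15 libraries without the name suffix gave 638 calls, and leaving out the 2 doubtful 3 h libraries gave 3409. Larger list counts without those 2 libraries, given below, go with this rise over all genes and are not read as changes of a pathway. All list counts below stand beside the 5.17% higher and 7.68% lower over all genes. In either direction, 78.3% of cholesterol synthesis, 73.1% of ribosome biogenesis and 47.8% of the proteasome list were called. Shares less far above 12.9% included interferon response (15.0%), fat oxidation (19.4%) and amino acid catabolism (20.0%).

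**Figure D1:**
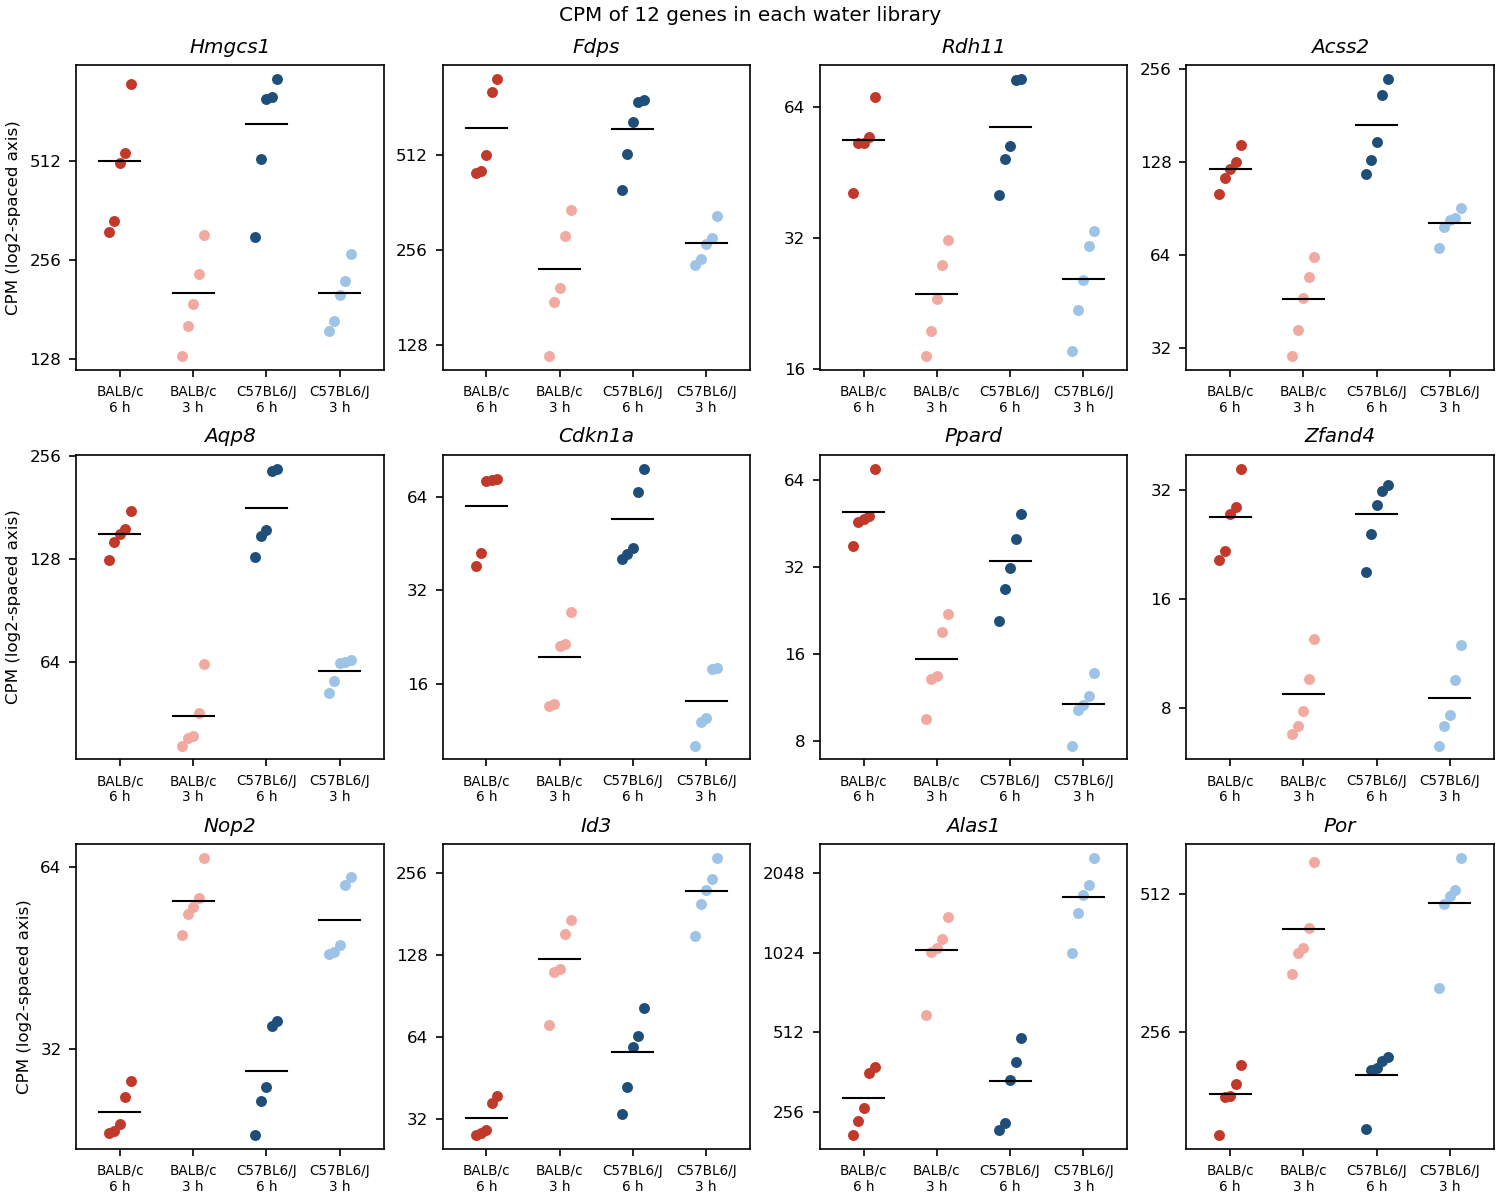
CPM on a log2-spaced axis of 12 genes in each of the 20 water libraries, grouped as BALB/c 6 h, BALB/c 3 h, C57BL6/J 6 h and C57BL6/J 3 h, with a bar at the mean of 5 libraries. For Fdps, Rdh11, Acss2, Aqp8, Cdkn1a, Zfand4, Nop2, Alas1 and Por the 10 points at 6 h and the 10 at 3 h share no range, and for Hmgcs1, Ppard and Id3 they touch.

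Of 36 pathway lists, cholesterol synthesis had the highest median. The list has 23 genes and also takes in Ggps1, of a side branch that makes geranylgeranyl pyrophosphate, and Rdh11, a retinal reductase that responds to sterols. Of the 23, 18 were called higher at 6 h, Rdh11 among them, and 0 lower, and the median log2 fold change was 0.75 with a range of -0.19 to 1.52. The pathway runs from acetyl-CoA to mevalonate, then through isoprenoids to squalene, and ends with the steps that shape the sterol rings. SREBP-2 drives these promoters together with NF-Y, which binds the letters CCAAT, so the stretches of 3 promoters are shown with those letters and their reverse complement ATTGG in capitals. The letters TCACNCCAC, a form of sterol element in which N is any base, are in capitals too. The sequences are from RefSeq, build GRCm38.p6, 5′ to 3′ on the strand of the gene. The stretches are chr13:119690171-119690320 on the plus strand for Hmgcs1, chr8:64733624-64733748 on the minus strand for Msmo1 and chr13:8885506-8885605 on the plus strand for Idi1.
Hmgcs1: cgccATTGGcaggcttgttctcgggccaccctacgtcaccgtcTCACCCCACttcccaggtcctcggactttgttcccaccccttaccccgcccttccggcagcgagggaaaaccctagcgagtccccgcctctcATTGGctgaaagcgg
Msmo1: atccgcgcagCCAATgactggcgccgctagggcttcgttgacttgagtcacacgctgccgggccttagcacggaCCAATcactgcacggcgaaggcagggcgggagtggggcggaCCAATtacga
Idi1: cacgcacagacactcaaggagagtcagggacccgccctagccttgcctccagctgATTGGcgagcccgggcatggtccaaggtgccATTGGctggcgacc

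Promoters were searched on both strands over the 250 bases before the first listed start. CCAAT was found in 15 of the 18 cholesterol-synthesis genes that RefSeq's table covers (83.3%), in 6 of 21 genes of ribosome biogenesis (28.6%) and in 3763 of 10458 promoters of all genes tested (36.0%). TCACNCCAC was found in 1 of the 18, Hmgcs1, and in 1.01% of all promoters. A match describes letters in the window and is not a measured binding site, and Idi1, with 2 matches to CCAAT, is one of the 5 members that were not called (log2 fold change 0.64).

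Hmgcs1, which makes HMG-CoA (chr13:119690462-119708086, plus strand, in the deposited table), was at 301 to 905 CPM with a median of 529 at 6 h and at 131 to 305 CPM with a median of 195 at 3 h. C57BL6/J 6 h replicate 3, at 301 CPM, was the only 6 h library below the highest 3 h library, BALB/c replicate 2 at 305 CPM. Its log2 fold change was 1.52 ± 0.21 (SE, n = 10 each; edgeR adjusted p = 6.07e-05).

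Fdps makes farnesyl pyrophosphate, the last shared isoprenoid. It was at 396 to 888 CPM (median 582) at 6 h and 118 to 342 CPM (median 253) at 3 h, with no overlap and a log2 fold change of 1.34 ± 0.18 (adjusted p = 3.17e-05). Fdft1, squalene synthase, had a log2 fold change of 0.99 ± 0.14 (adjusted p = 4.12e-05), and a highly expressed gene on the other strand, Ctsb, overlaps it. Sqle, squalene epoxidase, was called with a log2 fold change of 0.74 ± 0.21 (adjusted p = 0.027) but lay above the 3 h mean of its strain in 8 of 10 libraries. It was at 24.8 to 181 CPM at 6 h and 17.5 to 118 CPM at 3 h, and it lost the call without C57BL6/J 6 h replicate 4. Among the late enzymes, Dhcr7, which makes cholesterol from 7-dehydrocholesterol, had a log2 fold change of 0.93 ± 0.13 and Msmo1, a sterol demethylase, 1.07 ± 0.17. The smallest p in the list was that of Rdh11, at 40.2 to 74.4 CPM at 6 h and 17.1 to 33.2 CPM at 3 h (log2 fold change 1.17 ± 0.14, adjusted p = 7.92e-06). Ggps1 (-0.08), Lbr (0.29) and Hsd17b7 (0.27) were among the other members not called.

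As a mean over the 23 members, relative to the midpoint of each strain, the list was between -0.25 and 0.82 on the log2 scale at 6 h and between -0.80 and -0.03 at 3 h. C57BL6/J 6 h replicate 3 (-0.25) and BALB/c 6 h replicate 5 (-0.05) were the 2 late libraries below the highest 3 h library. The median of the members was 0.76 in BALB/c and 0.71 in C57BL6/J, from separate mice. Refits that left out 1 library at a time gave 17 to 19 higher calls, and the 15 libraries without the name suffix gave 12.

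**Figure D2:**
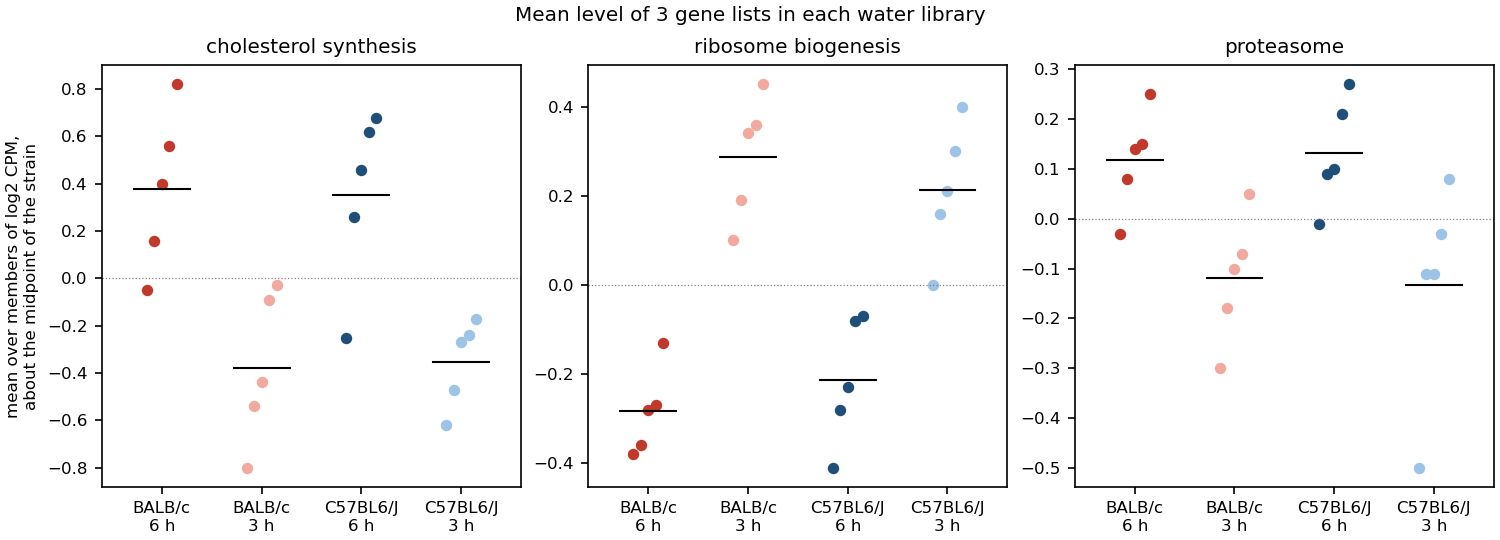
Mean log2 CPM over the members of 3 lists (cholesterol synthesis, ribosome biogenesis and proteasome), relative to the midpoint of each strain, with 1 point per library, a bar at the mean of 5 and, in each strain, the 6 h libraries left of the 3 h libraries. Ribosome biogenesis lies below 0 in all 10 of the 6 h libraries, and cholesterol synthesis lies below 0 in all 10 of the 3 h libraries.

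Of 19 genes that sense, take up and export sterols, 1 was higher and 4 were lower, with a median log2 fold change of -0.05. Without the 2 doubtful 3 h libraries 3 were higher and 6 lower, and the lower calls were 2 without C57BL6/J 6 h replicate 5 or C57BL6/J 3 h replicate 1 or 5. Srebf2, which encodes SREBP-2 (0.16 ± 0.09, adjusted p = 0.294), and Insig1, its retention factor (0.21 ± 0.12, adjusted p = 0.289), were not called. Insig2, the isoform that feeding represses, rose by 0.83 ± 0.17 (adjusted p = 0.00204). The exporters Abca1 (-0.33), Abcg1 (-0.54), Abcg5 (-0.44) and Abcg8 (-0.63) fell. Abcg5 and Abcg8 are overlapping neighbours whose reads cannot be told apart without strand, and Abca1 lost its call in 7 of 20 refits that left out 1 library.

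Of 23 genes of fatty acid synthesis, 6 were higher and 1 lower, with a median log2 fold change of 0.25, and 7 were higher and 2 lower without the 2 doubtful 3 h libraries. Acss2, which makes acetyl-CoA from acetate, was at 101 to 237 CPM (median 129) at 6 h and 30.2 to 90.7 CPM (median 65.3) at 3 h. The groups did not overlap, and the log2 fold change was 1.23 ± 0.14 (edgeR adjusted p = 4e-06), though the gene overlaps Gss on the other strand. Acly, which makes acetyl-CoA from citrate, rose by 0.61 ± 0.15, Acacb, the acetyl-CoA carboxylase at mitochondria, by 0.69 ± 0.12 and the elongase Elovl5 by 0.63 ± 0.12. Lpin1 (1.28) and Pnpla3 (1.32) completed the 6. Srebf1, which encodes SREBP-1, fell to 176 to 295 CPM at 6 h, against 291 to 467 CPM at 3 h, and its log2 fold change was -0.61 ± 0.11 (adjusted p = 0.000508). Mlxipl, which encodes the regulator ChREBP (0.25 ± 0.19, adjusted p = 0.416), Acaca, the cytosolic acetyl-CoA carboxylase (0.29 ± 0.12, adjusted p = 0.134), Fasn, the fatty acid synthase (0.24 ± 0.16, adjusted p = 0.358), and Scd1, the desaturase (0.90 ± 0.40, adjusted p = 0.151), were not called. Scd1 ranged over 219 to 1130 CPM at 6 h and 41.7 to 1200 CPM at 3 h. Elovl3, an elongase under clock and hormonal control, rose by 1.83 ± 0.39 over both strains (adjusted p = 0.00474), with 0.91 ± 0.43 in BALB/c alone (adjusted p = 0.301) and 2.76 ± 0.46 in C57BL6/J alone. BALB/c 6 h replicates 1 and 2, at 189 and 237 CPM, and C57BL6/J 6 h replicate 1, at 49.6 CPM, lay within the 3 h range of their strain.

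Of 31 genes of fat oxidation and ketone body synthesis, 2 were higher and 4 lower, with a median of -0.12. The lower calls were 11 without the 2 doubtful 3 h libraries, a fit in which the calls over all genes rose from 1898 to 3409. The lower calls of the list ranged from 2 to 8 in refits that left out 1 library, with 8 without C57BL6/J 3 h replicate 4 and 2 in 8 of the 20 refits. Cpt1a, which admits fatty acids to mitochondria, was at 88.9 to 138 CPM (median 107) at 6 h and 95.1 to 250 CPM (median 204) at 3 h. The 3 h value of 95.1 was that of C57BL6/J replicate 4, and the other 9 libraries at 3 h lay above every 6 h library. The log2 fold change was -0.85 ± 0.12 (adjusted p = 4.98e-05). Angptl4, an inhibitor of lipoprotein lipase that fasting raises, rose by 0.92 ± 0.22 (adjusted p = 0.00941), and Angptl8, its feeding-induced relative, fell by 0.88 on the log2 scale (SE 0.24, adjusted p = 0.0194).

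Ribosome biogenesis had the lowest median of the 36 pathway lists. Of 26 ribosome-biogenesis genes, which transcribe, process and fold ribosomal RNA in the nucleolus, 19 were called lower at 6 h and 0 higher, with a median log2 fold change of -0.57. Nop2, an rRNA methyltransferase (chr6:125131883-125144753, plus strand), was at 23.1 to 35.6 CPM (median 26.5) at 6 h and 46 to 66.3 CPM (median 54.2) at 3 h. No library of one time reached the range of the other, and the log2 fold change was -0.99 ± 0.10 (edgeR adjusted p = 8.28e-07). The processing factors Rrp12 (-0.85 ± 0.10), Wdr43 (-0.88 ± 0.11) and Heatr1 (-0.72 ± 0.09) also did not overlap, and 8 of the 26 members did not. Polr1b, the second-largest subunit of RNA polymerase I, fell by 0.84 on the log2 scale (SE 0.10), and Rrp1b, a nucleolar protein outside the list, by 0.99 (SE 0.12). The abundant nucleolar proteins did not pass the test, with log2 fold changes of -0.02 for Fbl, -0.11 for Ncl and 0.02 for Npm1. Relative to the strain midpoint, the list mean was -0.41 to -0.07 at 6 h and 0.00 to 0.45 at 3 h, with no overlap. Leaving out 1 library at a time gave 18 to 20 lower calls, and the libraries without the name suffix gave 13.

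The genes of the ribosome's own proteins were tested as a list of their own. All 24 cytosolic ribosomal protein genes had a positive log2 fold change, with a median of 0.17, and 0 were called, against 4 called higher without the 2 doubtful 3 h libraries. Of 23 proteasome genes, which degrade proteins, 11 were called higher and 0 lower, with a median of 0.24. Psmd14, the deubiquitinase of the lid (0.44 ± 0.08, adjusted p = 0.00105), and Psma4, a subunit of the core ring (0.34 ± 0.09, adjusted p = 0.0106), had the smallest p-values. Of the 23 members 22 had a positive log2 fold change, and leaving out 1 library gave 7 to 13, with 7 without C57BL6/J 6 h replicate 3 or 5 or BALB/c 6 h replicate 4, and the libraries without the name suffix gave 1.

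**Figure D3:**
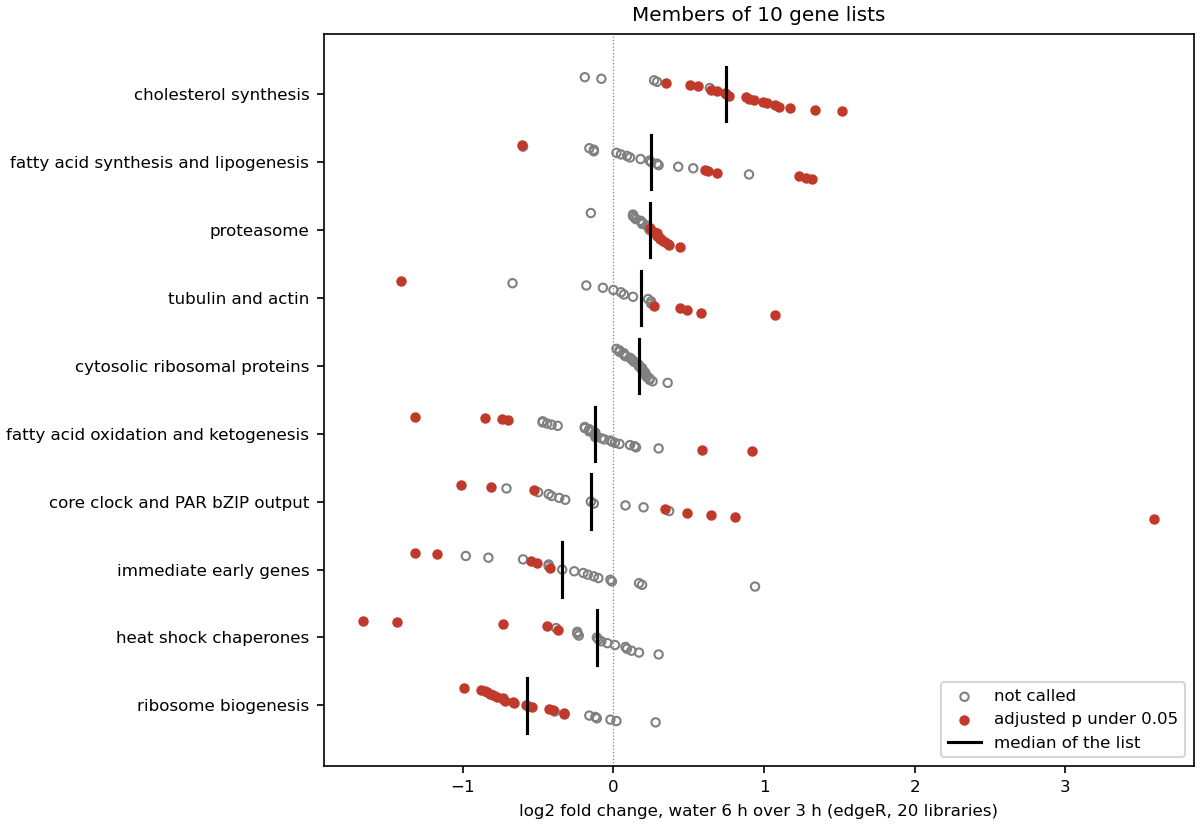
Log2 fold change, 6 h over 3 h, of each tested member of 10 gene lists, with filled points for genes called at an adjusted p under 0.05 and a bar at the median. Cholesterol synthesis (median 0.75) lies mostly right of 0 and ribosome biogenesis (median -0.57) left of it, while all ribosomal protein genes lie just right of 0 and are open points.

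Among single genes, Aqp8, a water and hydrogen peroxide channel of the hepatocyte (chr7:123462294-123468003, plus strand), had the smallest p of all genes tested. It was at 127 to 235 CPM (median 153) at 6 h and 36.4 to 64.8 CPM (median 54) at 3 h, with a log2 fold change of 1.67 ± 0.12 (edgeR adjusted p = 1.22e-08). Cdkn1a, the cell-cycle inhibitor p21, was at 38.4 to 78.9 CPM (median 55.1) at 6 h and 10.1 to 27.3 CPM (median 15.8) at 3 h. Its groups did not overlap either, and the log2 fold change was 1.78 ± 0.18 (adjusted p = 1.14e-06). Trp53inp1, a p53 target like Cdkn1a, rose by 1.49 ± 0.22. Ppard, the nuclear receptor PPAR delta, was at 20.8 to 70.1 CPM (median 42.9) at 6 h and 7.74 to 22 CPM (median 12.3) at 3 h, which overlapped narrowly (log2 fold change 1.67 ± 0.16, adjusted p = 8.28e-07). Zfand4, a zinc finger protein, rose by 1.65 ± 0.14 with no overlap, and the inositol phosphate kinase Ip6k2 by 1.75 ± 0.22. The transcription factor Zbtb16 rose by 2.00 ± 0.35, and Chrna4, a nicotinic acetylcholine receptor subunit, by 3.74 ± 0.54. Chrna4 was at 7.59 to 53.5 CPM at 6 h and 0.156 to 8.96 CPM at 3 h, and the 3 h value of 8.96 was that of C57BL6/J replicate 4.

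Alas1 and Por, which belong to heme synthesis and to P450 function, fell. Alas1, the rate-limiting enzyme of heme synthesis (chr9:106233455-106248126, minus strand), was at 209 to 486 CPM (median 302) at 6 h and 593 to 2330 CPM (median 1270) at 3 h. The ranges were separate, and the log2 fold change was -2.08 ± 0.19 (adjusted p = 3.96e-07). Por, which passes electrons to the heme-containing microsomal P450 enzymes, was at 153 to 226 CPM (median 205) at 6 h and 320 to 612 CPM (median 459) at 3 h, again without overlap (log2 fold change -1.22 ± 0.12, adjusted p = 6.5e-07). Among the 19 genes of the drug-metabolism list, which holds both, 3 were higher and 4 lower with a median of 0.14. The P450 genes Cyp2a5 (-0.58) and Cyp2e1 (-0.38) fell and Cyp1a1 (0.87) and Cyp2c55 (0.67) rose. The 3 higher calls, of which the xenobiotic receptor Nr1i2 (0.29) was the third, became 0 without C57BL6/J 6 h replicate 5 and in the model of the whole series. They became 1 without C57BL6/J 6 h replicate 2 or 4, BALB/c 6 h replicate 3, C57BL6/J 3 h replicate 1 or 2, or BALB/c 3 h replicate 2 or 5. Cyp2a5 has a near-identical copy, Cyp2a4, with which reads may be shared. Markers of the pericentral zone, where Cyp2e1 is expressed, summed to 7500 to 10200 CPM (median 9050) at 6 h and 7870 to 12900 CPM (median 11300) at 3 h, with 3 of 11 called lower and none at 0. Cyp2e1 alone was at 5330 to 7970 CPM at 6 h and 4640 to 10200 CPM at 3 h, so this sum is no readout apart from that gene. Periportal markers summed to 6510 to 10300 CPM (median 8600) at 6 h and 4430 to 8600 CPM (median 7110) at 3 h, with 0 of 11 called. The part of these markers in the fall of Alas1 and Por was not tested.

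Other genes with large falls belonged to several lists or to none. Id3, an inhibitor of helix-loop-helix factors that BMP signals induce, was at 27.8 to 81.6 CPM (median 37.6) at 6 h and 70.6 to 291 CPM (median 162) at 3 h. The overlap came from BALB/c 3 h replicate 2 at 70.6 CPM and C57BL6/J 6 h replicate 5 at 81.6 CPM, and the log2 fold change was -1.96 ± 0.17 (adjusted p = 1.99e-07). Hamp, the iron hormone hepcidin and another BMP target, was at 160 to 2840 CPM (median 765) at 6 h and 1350 to 3510 CPM (median 2340) at 3 h. C57BL6/J 6 h replicate 3, at 2840 CPM, stayed within the 3 h range of its strain, and the log2 fold change was -1.60 ± 0.26 (adjusted p = 0.000345). The feedback inhibitors of growth hormone signalling, Cish (-2.10 ± 0.53, adjusted p = 0.0135) and Socs2 (-1.62 ± 0.37, adjusted p = 0.00692), also fell, and each lost its call in the libraries without the name suffix. Cish was at 0.0849 to 6.42 CPM at 6 h and 0.942 to 44.8 CPM at 3 h. C57BL6/J 3 h replicates 2 (27 CPM) and 4 (44.8 CPM) stood far above the rest, and BALB/c 3 h libraries held 0.942 to 3.33 CPM. Its call was lost in 0 of 20 refits that left out 1 library. In the list of 12 genes of the growth hormone and IGF axis, which holds Cish and Socs2, 2 were higher and 2 lower, and the median was 0.02. Mt1, a metallothionein (-1.65 ± 0.28), Onecut1, a hepatocyte transcription factor (-1.65 ± 0.34), Tgm1, a transglutaminase (-1.56 ± 0.24), and Lipg, endothelial lipase (-1.54 ± 0.23), were among the 12 lowest named genes.

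Among immediate early and heat shock genes the calls were all towards lower levels at 6 h. Of 21 immediate early genes 5 were lower and 0 higher, with a median of -0.34. Jun, a subunit of AP-1, had a log2 fold change of -1.17 ± 0.24 (adjusted p = 0.00243), and Atf3 one of -1.32 ± 0.23 (adjusted p = 0.000508). The lower count became 9 without BALB/c 3 h replicate 4 and also without both doubtful 3 h libraries. Of 19 heat shock chaperone genes 5 were lower and 0 higher, with a median of -0.11. The median was -0.27 in BALB/c and 0.04 in C57BL6/J, and the step of 0 members was called as different between the strains. Hspa1b, the inducible HSP70, was at 13.6 to 65.3 CPM (median 31.1) at 6 h and 36.1 to 232 CPM (median 96.5) at 3 h. C57BL6/J 3 h replicate 4, at 36.1 CPM, was the lowest of the 3 h libraries, and the log2 fold change was -1.66 ± 0.33 (adjusted p = 0.0027). Its near-identical copy Hspa1a (-1.44 ± 0.38) can share reads with it, so the split between them is uncertain. Bag3, the cochaperone of HSP70, fell by 0.73 (SE 0.14), while Dnaja1 (-0.37) lost its call in 15 of 20 refits that left out 1 library. The list had 3 lower calls in 15 of those 20 refits and 7 without C57BL6/J 3 h replicate 4, and without both doubtful 3 h libraries it had 7 lower and 1 higher.

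Of 24 genes of the unfolded protein response 3 were higher and 4 lower, with a median of 0.06. By strain the median was -0.21 in BALB/c and 0.22 in C57BL6/J, with 0 members called as different between the strains. The folding factors Calr (0.47 ± 0.13) and Pdia3 (0.49 ± 0.16) and the ER protein Selenok (0.55 ± 0.10) rose, and Dnajb9 (-0.90 ± 0.25), Ero1l (-0.63 ± 0.15), Syvn1 (-0.59 ± 0.19) and Xbp1 (-0.25 ± 0.08) fell. The lower calls became 2 in 9 of the 20 refits. Hspa5, the master chaperone of the endoplasmic reticulum, ranged over 1090 to 2910 CPM at 6 h and 774 to 4070 CPM at 3 h and was not called (-0.22 ± 0.20, adjusted p = 0.518). In the ATF4 arm, 4 of 18 genes were higher and 2 lower. Atf5 rose by 0.70 ± 0.11, and Ddit3, which encodes CHOP and overlaps Mars, fell by 0.50 (SE 0.16), a call lost in 9 of 20 refits.

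Of 17 genes of gluconeogenesis and FoxO1 control 3 were higher and 2 lower, with a median of 0.13, and without the 2 doubtful 3 h libraries 3 were higher and 6 lower. Refits that left out 1 library gave 2 to 6 higher calls, with 2 without BALB/c 6 h replicate 4, 5 without BALB/c 3 h replicate 2 and 6 without BALB/c 6 h replicate 1. They gave 2 to 5 lower calls, with 5 without C57BL6/J 3 h replicate 4. The lower genes were Got1, an aspartate aminotransferase (-0.80 ± 0.17, adjusted p = 0.00249), and Sik1, a kinase that restrains CREB coactivators (-0.45 ± 0.12, adjusted p = 0.0150), and the higher ones were Igfbp1, G6pc and Foxo3 (0.43 ± 0.11). Igfbp1, a FoxO1 target that insulin shuts off, was at 2.03 to 22 CPM (median 6.36) at 6 h and 0.719 to 8.01 CPM (median 1.59) at 3 h. The 3 h library at 8.01 CPM was C57BL6/J replicate 3, and the log2 fold change was 1.86 ± 0.42 (adjusted p = 0.00571). G6pc, the last step of glucose output, rose by 0.84 ± 0.24 (adjusted p = 0.0223), a call lost without BALB/c 6 h replicate 4. Pck1, the gateway of gluconeogenesis, ranged over 210 to 1460 CPM at 6 h and 67.1 to 731 CPM at 3 h and was not called (1.10 ± 0.41, adjusted p = 0.086). Pdk4, which turns glucose oxidation off, rose by 0.59 ± 0.13. Txnip, which follows glucose itself, was not called (-0.06 ± 0.09, adjusted p = 0.722).

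Of 19 genes of the clock and its output 5 were higher and 3 lower, with a median of -0.15. Without C57BL6/J 3 h replicate 4, and also without both doubtful 3 h libraries, 6 were higher and 6 lower. Npas2, a partner of BMAL1, was at 1.38 to 8.08 CPM (median 4.68) at 6 h and 0 to 0.912 CPM (median 0.27) at 3 h. The groups did not overlap, the 3 h value of 0.912 was that of C57BL6/J replicate 4, and the fitted log2 fold change was 3.59 ± 0.38 (edgeR adjusted p = 2.15e-06). Arntl, which encodes BMAL1, rose by 0.65 ± 0.11. Per1 rose by 0.81 ± 0.22, with 8 of 10 libraries at 6 h above the 3 h mean of their strain. Cry1 (0.49) and Nfil3 (0.34) completed the 5. The repressor Nr1d2 (-0.81 ± 0.15), Per3 (-0.53 ± 0.12) and Bhlhe41 (-1.01 ± 0.27) fell. Nr1d1 (-0.71 ± 0.24, adjusted p = 0.0524), Per2 (-0.41 ± 0.17, adjusted p = 0.12) and Dbp (-0.43 ± 0.18, adjusted p = 0.127) had negative values and were not called, and Dbp and Nr1d1 overlap the more abundant genes Sphk2 and Thra.

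Smaller groups of called genes were found elsewhere. Of 16 tubulin and actin genes 5 tubulins were higher, led by Tubb2a (1.07 ± 0.11, adjusted p = 8.28e-07), and 1 actin was lower, against 7 higher and 2 lower without the 2 doubtful 3 h libraries. That actin was Actg1, cytoplasmic gamma actin, at 86.7 to 184 CPM (median 149) at 6 h and 193 to 709 CPM (median 307) at 3 h, with no overlap. Tubulin and actin genes are families of close copies among which reads may be shared, and leaving out 1 library gave 3 to 6 higher calls, with 3 without C57BL6/J 6 h replicate 5, BALB/c 6 h replicate 4 or 5, C57BL6/J 3 h replicate 1 or 5, or BALB/c 3 h replicate 1. Among 18 secreted hormones and binding proteins, Enho, the peptide adropin, rose by 0.77 ± 0.11, and Inhbe, an activin subunit, fell by 1.03 on the log2 scale (SE 0.19). Bhmt, which remethylates homocysteine, rose by 0.73 ± 0.14 among 30 genes of amino acid catabolism, of which 5 were higher and 1 lower, or 5 and 2 without the 2 doubtful 3 h libraries. Of 20 interferon-response genes 3 were higher, including Isg15 (0.86 ± 0.16), with a median of 0.34, which was 0.06 in BALB/c and 0.57 in C57BL6/J. The interferon calls were 7 without the 2 doubtful 3 h libraries and 5 without C57BL6/J 3 h replicate 4 or BALB/c 6 h replicate 2. Ulk1, which starts autophagy, rose by 0.75 ± 0.15.

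The step was then taken in each strain alone, from a model of the 4 group means. At the same threshold, in BALB/c 389 genes (2.63%) were called and in C57BL6/J 797 (5.4%). Both called 208 genes with the same sign, which is 53.5% of the BALB/c calls and 26.1% of the C57BL6/J calls, and 0 with opposite signs. Of the BALB/c calls 97.4% had the same sign in C57BL6/J, of the C57BL6/J calls 95.7% had the same sign in BALB/c, and over all genes tested the share was 67.4%. The strains share no library, and the difference in the numbers called is no test of a difference between them.

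That difference was tested as the interaction of strain and time, and 0 genes (0%) were called by edgeR or by DESeq2, with 730 genes at an unadjusted p under 0.05 in edgeR. Actg1, Pitx3, Slc43a1 and Xpo1 were among the genes with the smallest p-values, each with an adjusted p of 0.98. Actg1 had a log2 fold change of -0.79 ± 0.21 in BALB/c and -2.04 ± 0.22 in C57BL6/J (interaction 1.26 ± 0.30, unadjusted p = 0.000315). Pitx3, a homeobox factor, had 0.57 ± 0.46 in BALB/c and 3.48 ± 0.53 in C57BL6/J. BALB/c libraries held 9.2 to 27 CPM of Pitx3 at 6 h and 6.79 to 15.6 CPM at 3 h, while C57BL6/J libraries held 2.3 to 22 CPM at 6 h and 0.829 to 2.08 CPM at 3 h, so the strains were further apart at 3 h.

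**Figure D4:**
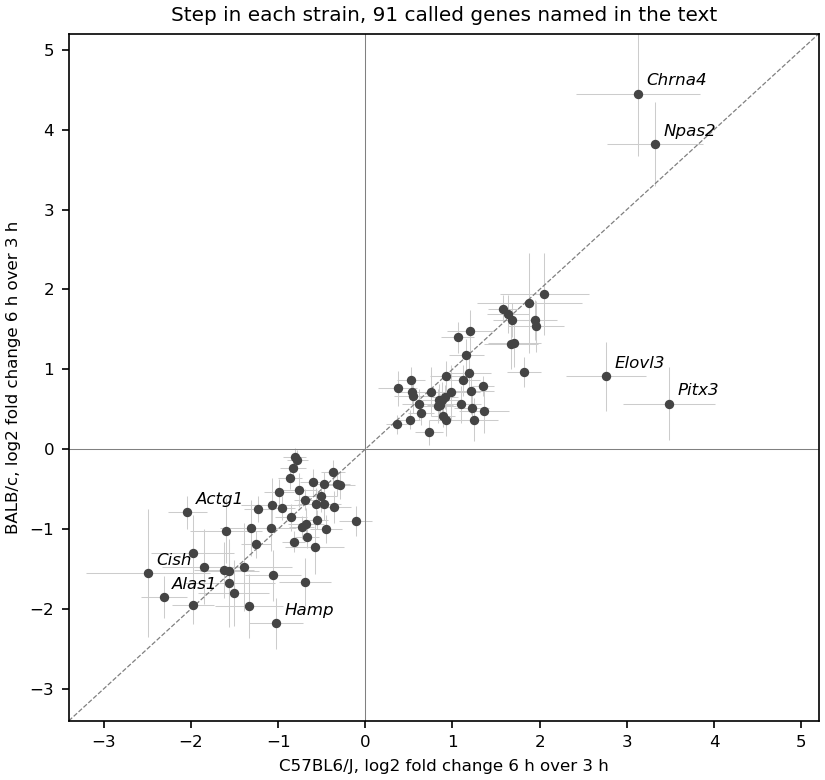
Log2 fold change, 6 h over 3 h, in BALB/c (vertical) and C57BL6/J (horizontal) of 91 named genes called over both strains, with bars of 1 SE. The points follow the diagonal, which their choice favours, because each was called over both strains and some were also taken for the same sign in both. Actg1 (-0.79 in BALB/c, -2.04 in C57BL6/J) and Pitx3 (0.57 and 3.48) stand off it without an adjusted call.

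The same step was measured in other mice, those given sugar to drink, with glucose, sucrose and fructose groups of 10 libraries at each time. Over the mean of the 3 sugars 4070 of 16212 genes (25.1%) were called, and 1045 (6.45%) with glucose, 1658 (10.2%) with sucrose and 994 (6.13%) with fructose. Of the 1898 genes called on water, 1740 (91.7%) had the same sign with sugar, and 68.4% of all genes tested in both did. The same sign and a call with sugar were found for 1098, which is 57.9% of the water calls and 28.4% of the sugar calls that were tested on water, and 16 were called in the opposite direction. By drink, the same sign was shared by 86.7% with glucose, 89% with sucrose and 81.9% with fructose. Cdkn1a, for example, averaged 41.3 ± 10.7 CPM at 6 h and 13.1 ± 7.47 CPM at 3 h with glucose, and 57.4 ± 17.3 CPM at 6 h and 16.7 ± 5.39 CPM at 3 h on water (SD, n = 10 each). Npas2, Ppard and Por likewise moved with sugar in the direction they had on water, with mean sugar log2 fold changes of 2.90, 1.57 and -1.13.

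The size of the step differed between sugar and water for 125 genes (0.771%), with 77 (0.475%) more positive with sugar and 48 (0.296%) more negative, and 1899 genes were at an unadjusted p under 0.05. Cholesterol synthesis held 5 of them, Hmgcs1, Msmo1, Mvd, Fdft1 and Tm7sf2, all more negative with sugar. The median step of the 23 genes was 0.15 with glucose, 0.06 with sucrose and 0.12 with fructose, against 0.76 on water in the same fit, and 5 members were called higher with the mean of the sugars, in which 12.2% of genes were. Hmgcs1 averaged 425 ± 162 CPM at 6 h and 360 ± 206 CPM at 3 h with glucose, and 328 ± 139 CPM at 6 h and 281 ± 165 CPM at 3 h with sucrose. With fructose it averaged 225 ± 101 CPM at 6 h and 172 ± 54.2 CPM at 3 h, and on water 589 ± 232 CPM at 6 h and 203 ± 53.9 CPM at 3 h (SD, n = 10 each). The step of Hmgcs1 was smaller with sugar by a log2 difference of -1.18, that of Msmo1 by -1.12, that of Mvd by -0.99, that of Fdft1 by -0.94 and that of Tm7sf2 by -0.63. Of the 4 drinks, water had the highest 6 h mean of Hmgcs1, and fructose was the only drink with a lower 3 h mean. Fdps, by comparison, had 630 ± 207 CPM at 6 h and 447 ± 197 CPM at 3 h with glucose, and 622 ± 175 CPM at 6 h and 245 ± 70.1 CPM at 3 h on water, and its step was not called as different.

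**Figure D5:**
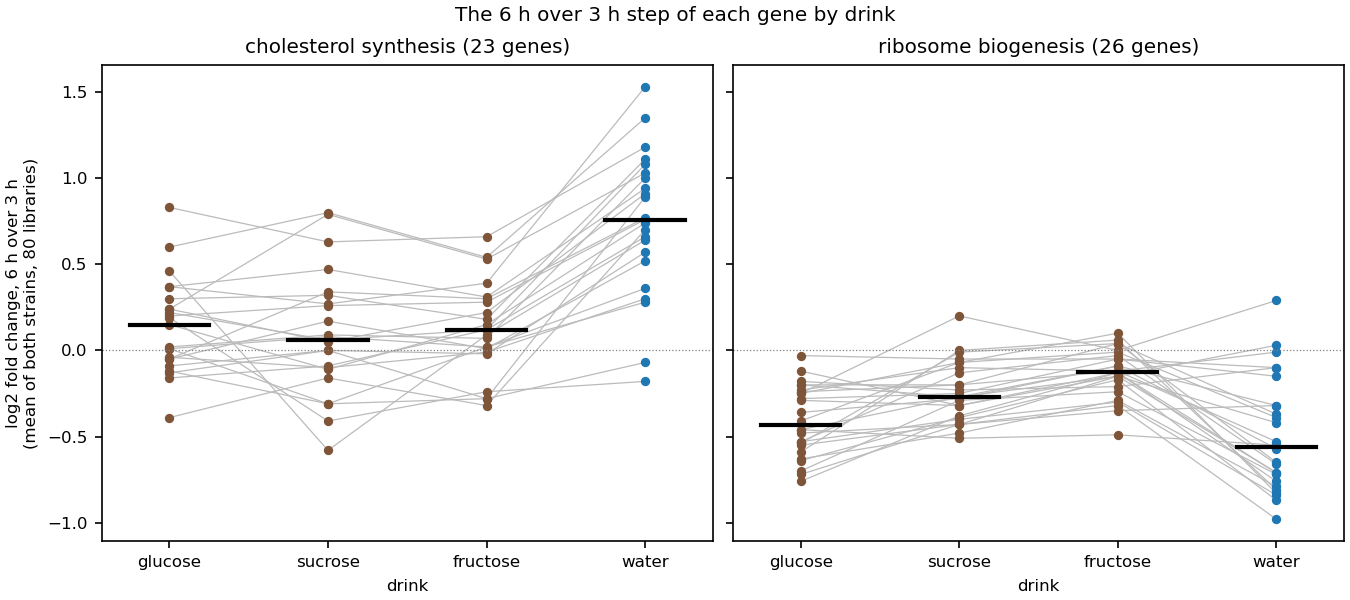
Log2 fold change, 6 h over 3 h, of each of 23 cholesterol-synthesis genes and 26 ribosome-biogenesis genes with glucose, sucrose, fructose and water, with a bar at the median. The medians are 0.15, 0.06, 0.12 and 0.76 for cholesterol synthesis and -0.44, -0.27, -0.12 and -0.56 for ribosome biogenesis.

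Ribosome biogenesis also had its most negative median on water. This list and cholesterol synthesis had the lowest and highest list medians on water, so less extreme medians with sugar are favoured by their choice. The median step was -0.44 with glucose, -0.27 with sucrose and -0.12 with fructose, against -0.56 on water, and 19 of 26 members were called lower with the mean of the sugars, in which 12.9% of genes were. Polr1b (0.71), Nop2 (0.49), Rrp9 (0.48) and Heatr1 (0.46) were the 4 members whose step differed, all less negative with sugar, and Rrp9 overlaps Parp3. Nop2 averaged 31.1 ± 5.49 CPM at 6 h and 38.8 ± 5.07 CPM at 3 h with fructose, and 27.5 ± 4.59 CPM at 6 h and 54.2 ± 7.09 CPM at 3 h on water. The step of Rrp1b was -0.43 with glucose, 0.15 with sucrose, 0.47 with fructose and 0.06 over their mean (adjusted p = 0.619), against -0.99 in the 20 water libraries. It averaged 9.58 ± 2.43 CPM at 6 h and 12.9 ± 4.06 CPM at 3 h with glucose, 10.8 ± 2.14 CPM at 6 h and 7.83 ± 1.55 CPM at 3 h with fructose and 7.23 ± 1.46 CPM at 6 h and 14.2 ± 1.89 CPM at 3 h on water. Its step was more positive with sugar by 1.04 ± 0.16 (edgeR adjusted p = 3.3e-05).

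The steps of Alas1 and Actg1 were less negative with sugar than on water, by a log2 difference of 1.27 ± 0.32 for Alas1 (adjusted p = 0.0302) and 1.20 ± 0.22 for Actg1. At 6 h Alas1 averaged 373 ± 227 CPM with glucose, 387 ± 179 CPM with sucrose, 422 ± 182 CPM with fructose and 314 ± 93.4 CPM on water. At 3 h it averaged 807 ± 461 CPM with glucose, 588 ± 210 CPM with sucrose, 680 ± 283 CPM with fructose and 1350 ± 498 CPM on water (SD, n = 10 each). Actg1 likewise stood at 122 to 145 CPM at 6 h as the mean of each drink, and at 3 h it averaged 280 ± 85.9 CPM with glucose, 134 ± 40.0 CPM with sucrose, 94.9 ± 17.7 CPM with fructose and 394 ± 179 CPM on water. For both genes the means of the 4 drinks spanned a wider range at 3 h than at 6 h.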

How the data were processed

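Liver RNA was sequenced as 150 bp paired reads, and the authors deposited raw counts for each gene. The submitters' processing notes name CASAVA, STAR 2.5, HTSeq 0.6.1, DESeq2 and mm10 (GRCm38) without saying what each did, and strand use in counting is not stated in the labels or notes. Of the genes named in the text, 18 are overlapped by another gene of at least 1 CPM. The table held 35275 genes, with 0 unused columns. Within each of the 4 groups, no pair of libraries was identical or agreed within sampling noise, and pairs across groups were not compared. FPKM values the authors deposited were not used.

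The 20 water libraries entered edgeR 4.0.16 (R 4.3.3) with filterByExpr over the 4 groups and TMM scaling (robust quasi-likelihood test, strain as covariate, Benjamini-Hochberg over all genes, adjusted p under 0.05). Strain steps and their interaction came from a model of 4 group means, and sugar steps from a model of the 80 libraries at 6 h and 3 h. The scripts were tested on simulated data. CPM used TMM-scaled totals, log2 CPM a prior count of 1, and values are mean ± SD or estimate ± SE.

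The members, 52 gene lists and alternatives were chosen with earlier results of these data known. Lists are given as counts and medians, without a set test. Named genes were a panel of liver genes, the 12 highest and 12 lowest log2 fold changes among called genes of at least 5 CPM, up to 4 called members of each list by p, and the 5 smallest p-values of the interaction and of the sugar difference. The 12 highest and 12 lowest also had to have the same sign in both strains. The rule takes 155 genes, and many of them are left out of the text. The refits and the screen of single libraries followed 103 named genes, 5 of them outside the rule. Acaca, Mlxipl, Polr1b, Rrp9, Msmo1, Mvd, Tm7sf2 and the other list members named to complete a count were chosen after their values were seen. Tried beside this were a fit by DESeq2 1.42.0, RLE scaling, no filter, a block for the replicate number, the suffix as covariate, its libraries left out, a model of the whole series and leaving out single libraries.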

Additional observations from a re-analysis of the deposited data

Results flagged for a closer look

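In each group of 5 libraries, the named genes were screened for a highest or lowest library far from the other 4. Of 412 pairs of gene and group 23 (5.58%) met the criterion, and chance flags about 1 in 20 groups. C57BL6/J 3 h replicate 4, the library with the low hepatocyte markers, held 7 of them. It had 0.912 CPM of Npas2 (0 to 0.24 in the other 4), 8.96 of Chrna4 (0.839 to 2.01), 34.8 of Ulk1 (18.1 to 22.7), 46.9 of Per3 (28.7 to 32.4) and 378 of Per2 (123 to 180). It had less Cpt1a at 95.1 CPM (201 to 223) and less Inhbe at 27.2 CPM (64.8 to 79.7). Npas2, Chrna4, Ulk1, Cpt1a and Inhbe lay towards the 6 h level in it, and Per3 and Per2 away from it.

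Among the other C57BL6/J libraries, 6 h replicate 1 had 32.8 CPM of Jun (10.9 to 15.3 in the other 4) and 29.5 of Acot3 (10.5 to 14.8). The 6 h replicate 2 had 158 CPM of Por (212 to 226) and 1.67 of Hspa1a (0.804 to 1.01), and replicate 3 had 2840 of Hamp (936 to 1420). At 3 h, replicate 1 had 6.45 CPM of Isg15 (4.89 to 5.33), replicate 2 had 72.6 of Tgm1 (31.9 to 38.4) and replicate 3 had 8.01 of Igfbp1 (0.719 to 2.72).

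In BALB/c at 6 h, replicate 1 had 13.3 CPM of Rrp9 (10.5 to 11.3) and replicate 2 had 325 of Atf5 (389 to 415). At 3 h, replicate 2 had 54.3 CPM of Xpo1 (39.8 to 43.9), 5.2 of Hspa1a (1.49 to 2.56) and 295 of G6pc (140 to 164). The 3 h replicate 3 had 8.26 CPM of Zbtb16 (3 to 4.34) and 294 of Scd1 (41.7 to 74), and replicate 4 had 33.8 of Ulk1 (24 to 26.6).

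The 6 h over 3 h step differed between sugar and water, by edgeR's test of the difference, for 17 of the named genes. Sugar gave the more positive log2 step for Alas1 (1.27), Actg1 (1.20), Rrp1b (1.04), Ubox5 (0.93), Polr1b (0.71), Xpo1 (0.59), Det1 (0.57), Nop2 (0.49), Rrp9 (0.48) and Heatr1 (0.46). Sugar gave the more negative step for Hmgcs1 (-1.18), Msmo1 (-1.12), Plekhf1 (-1.03), Ypel2 (-1.01), Mvd (-0.99), Fdft1 (-0.94) and Tm7sf2 (-0.63).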

How the results depend on the processing

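The 1898 calls at 6 h against 3 h became 638 when the 5 libraries with the suffix were left out and 3409 when the 2 doubtful 3 h libraries, which correlated less with their own time than with 6 h, were. The rise to 3409 is favoured by that choice, which used the same expression data. The other settings gave 2337 with DESeq2, 1863 with RLE, 1592 with no filter, 1876 with the suffix as covariate, 1365 in the model of the whole series and 1668 in the 13 libraries left when both exclusions were applied, which was added after the data were seen. For C57BL6/J, the 797 calls became 1210 with DESeq2, 1237 with the replicate block, 106 without the suffix libraries, 407 in the model of all libraries, 1305 without the 2 doubtful libraries and 146 with both exclusions. For BALB/c, the 389 calls became 677 with DESeq2, 733 with the replicate block, 96 without the suffix libraries and 1328 without the 2 doubtful libraries. The 125 sugar differences became 270 with DESeq2 and 228 with the replicate block. The interaction had 0 calls in each setting run. Leaving out 1 library at a time gave 1507 to 2524 calls over both strains, the most without C57BL6/J 3 h replicate 4, 440 to 1038 in C57BL6/J, 184 to 684 in BALB/c and 0 to 0 for the interaction.

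The replicate block gave 2523 calls over both strains. No label says that a number marks a shared batch or day. The deviations from the group means correlated at -0.07 to 0.33 between libraries of the same number, over 0.1 in 5 of 10 pairs, and 5 of 10 libraries at 6 h correlated best with their own number, where chance gives 2. Pairing is thus neither given by the design nor shown in every pair.

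Of 103 named genes 91 were called. Of these calls 18 were lost in the model of all libraries and 0 with DESeq2 or RLE. In the libraries without the suffix 28 were lost, including Sqle (edgeR adjusted p = 0.142), Acly (0.154), G6pc (0.161), Insig2 (0.0621) and Socs2 (0.102). In those 15 libraries the log2 fold changes were 0.72 for Sqle, 0.42 for Acly, 0.83 for G6pc, 0.70 for Insig2 and -1.12 for Socs2, against 0.74, 0.61, 0.84, 0.83 and -1.62 in all 20. Genes of a few CPM, such as Npas2 and Chrna4 at 3 h, rest on few reads, and their fold changes depend on the prior count. The causes were not tested.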

Other observations

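The counts of several other lists are given as descriptions, beside the 12.9% called over all genes. The share called was 25.0% for pentose phosphate genes, 21.4% for glycogen genes and 13.3% for NRF2 genes. It was 5.0% for acute phase genes and for nuclear oxidative phosphorylation, and 0.0% for mitochondrial oxidative phosphorylation. Of 8 pentose phosphate genes, which make NADPH, 2 were higher at 6 h and 0 lower, led by Pgd, 6-phosphogluconate dehydrogenase (log2 fold change 0.57 ± 0.10, edgeR adjusted p = 0.000398). Of 14 glycogen genes 2 were higher and 1 lower, or 4 and 2 without the 2 doubtful 3 h libraries. Gyg, the glycogen primer, rose by 0.52 ± 0.12, and Gys2, the liver glycogen synthase, fell by 0.41 on the log2 scale (SE 0.10). Of 15 genes of the NRF2 oxidative stress response 2 were higher, Gclc, which limits glutathione synthesis (0.35 ± 0.09), and Ugdh (0.40 ± 0.10). Of 20 acute phase genes 1 was higher and 0 lower on water, or 5 and 0 without the 2 doubtful 3 h libraries. With the mean of the sugars, over 60 libraries, 12 were called higher, where 12.2% of all genes were, and the step of 0 members was called as different between sugar and water. Nuclear genes of oxidative phosphorylation had 1 call of 20 and mitochondrial ones 0 of 12, with medians of 0.12 and 0.25. Without the 2 doubtful 3 h libraries, 5 nuclear genes were higher and 1 lower, and 1 mitochondrial gene was higher.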
